A study of Mus musculus with 56 samples.

Results

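The genes described here are 10 components of the circadian clock: Arntl, Per1, Per2, Per3, Cry1, Ciart, Nr1d1, Nr1d2, Dbp and Tef, 10 of 23261 gene symbols in the 6 deposited gene tables. They were chosen by name, with results of the comparisons of Fmr1 KO with WT and of siFmr1 with siNT already known, so their values in those comparisons are given as a description and nothing is read from their number. Fmr1 encodes FMRP, an RNA-binding protein that is lost in fragile X syndrome. RNA was sequenced in mouse cortex, hippocampus, cerebellum, liver, muscle and testis from Fmr1 KO and WT animals (3 libraries per genotype and tissue), and in N2a, a mouse neuroblastoma cell line. A first N2a experiment compared siFmr1 (3 libraries) with the non-targeting siNT (2 libraries). A co-transfection experiment had 5 groups of 3 libraries: siNT, siFmr1 or siMbnl1 with the empty plasmid pcDNA, siFmr1 with a FLAG-tagged nuclear MBNL1 (siFmr1_nMBNL1) and siMbnl1 with a FLAG-tagged cytosolic MBNL1 (siMbnl1_cMBNL1), where Mbnl1 encodes a splicing regulator. The sources used here do not give the strain, age or sex of the animals, the KO allele, the hour of tissue collection or the hours between transfection and harvest. They also do not say whether libraries of 1 group came from separate animals or cultures, so spreads and p-values measure the variation between these libraries, which may be technical.

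The clock is a feedback loop of transcription that runs in nearly every cell. BMAL1, the product of Arntl, pairs with CLOCK and activates genes through E-boxes in their promoters, among them the Per and Cry genes, Nr1d1, Nr1d2, Dbp, Tef and Ciart. PER and CRY proteins and CIART (also called CHRONO) repress BMAL1 and CLOCK, and the nuclear receptors REV-ERB alpha and beta, encoded by Nr1d1 and Nr1d2, repress Arntl through elements known as ROREs. DBP and TEF carry the rhythm to output genes through D-boxes. Over the day, Arntl transcripts peak far from those of Nr1d1 and Dbp, so a shift in clock time can move them in opposite directions. No hour is given for any library here, nor whether the libraries of a group were collected together. A difference in clock time and a difference in level therefore cannot be told apart.

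In the GENCODE annotation (build GRCm38), the members on the plus strand are Arntl at chr7:113207465-113314126, Per1 at chr11:69095217-69109960, Dbp at chr7:45705088-45710203 and Tef at chr15:81802421-81826863. Those on the minus strand are Per2 at chr1:91415982-91459324, Per3 at chr4:151003652-151044665, Cry1 at chr10:85131700-85185064, Ciart at chr3:95878503-95882251, Nr1d1 at chr11:98767932-98775333 and Nr1d2 at chr14:18204054-18239127. Several overlap other genes, and the sources used here do not state whether counting used strand, so their reads may be shared. Ciart shares 3749 bases with the antisense gene C920021L13Rik, Arntl 2394 with Gm45355, Nr1d1 1075 with Thra, Dbp 737 with Sphk2 and Tef 193 with Gm17597, all on the other strand. Per3 lies within the long gene Camta1 on the same strand.

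The promoter windows below, which run from 250 bases before to 50 bases after the annotated start of the transcript, were searched for the letters of the elements named above. They were taken from RefSeq (build GRCm38.p6), where 12 windows of 9 of the 10 genes were found; Per2 was not matched. Both strands were searched for the E-box CACGTG, the related E-prime box CACGTT, the D-box TTATGTAA, the RORE core AGGTCA and the cyclic AMP element TGACGTCA, and matches are in capitals. Ciart is shown for its 3 E-boxes, at -116, -58 and -44 from the start, Per3 for its D-boxes at -205 and -158, Per1 for an E-box at -166 beside a RORE core at -137, and Arntl, in the later of its 2 windows, for a RORE core at 32 after the start.
Ciart, minus strand of chr3:95882179-95882478: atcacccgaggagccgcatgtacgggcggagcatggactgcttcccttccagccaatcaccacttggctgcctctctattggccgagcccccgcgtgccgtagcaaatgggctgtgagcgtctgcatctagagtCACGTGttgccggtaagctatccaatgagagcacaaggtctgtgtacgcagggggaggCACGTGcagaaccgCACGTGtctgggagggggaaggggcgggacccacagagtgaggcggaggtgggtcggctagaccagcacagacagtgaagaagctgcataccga
Per3, minus strand of chr4:151044616-151044915: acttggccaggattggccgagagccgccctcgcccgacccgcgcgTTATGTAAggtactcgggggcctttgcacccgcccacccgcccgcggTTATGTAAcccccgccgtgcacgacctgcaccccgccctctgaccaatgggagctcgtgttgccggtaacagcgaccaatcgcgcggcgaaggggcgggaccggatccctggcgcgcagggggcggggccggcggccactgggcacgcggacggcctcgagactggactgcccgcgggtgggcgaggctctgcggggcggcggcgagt
Per1, plus strand of chr11:69098699-69098998: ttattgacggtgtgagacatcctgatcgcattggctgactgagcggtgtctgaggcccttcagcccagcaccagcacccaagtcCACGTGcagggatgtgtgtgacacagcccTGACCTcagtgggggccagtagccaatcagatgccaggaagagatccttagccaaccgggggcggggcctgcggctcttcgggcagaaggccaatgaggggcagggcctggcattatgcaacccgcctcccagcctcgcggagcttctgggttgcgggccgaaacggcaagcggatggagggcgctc
Arntl, plus strand of chr7:113207261-113207560: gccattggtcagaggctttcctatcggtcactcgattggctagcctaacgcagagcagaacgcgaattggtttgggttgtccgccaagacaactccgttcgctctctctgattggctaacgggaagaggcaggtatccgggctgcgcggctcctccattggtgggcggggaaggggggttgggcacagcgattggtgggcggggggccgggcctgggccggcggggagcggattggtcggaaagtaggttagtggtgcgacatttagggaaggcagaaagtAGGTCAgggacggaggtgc
An E-box was found in windows of 4 members (Ciart, Cry1, Per1 and Tef) and in 7.15% of all 32851 windows. The E-prime box was found for 2 members (Cry1 and Nr1d1; 4.68% of all windows), the D-box for 1 (Per3; 0.938%), the RORE core for 3 (Arntl, Nr1d2 and Per1; 16.3%) and the cyclic AMP element for 0 (1.79%). These are matches of letters, not sites shown to be bound, and the windows are short.

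Libraries held 26264368 to 41384652 assigned reads in brain, 13230785 to 16168225 in liver, 13934559 to 15386794 in muscle, 13752391 to 15879775 in testis and 13273331 to 16268865 in the first N2a experiment. Summed levels of marker genes were compared with the labels in TPM (a level corrected for transcript length and library size). The 3 hippocampus markers measured 134 to 155 TPM in hippocampus and at most 16.1 in cortex, the 4 cerebellum markers 4988 to 6036 TPM in cerebellum, and the 4 muscle markers 113600 to 127200 TPM in muscle. The 4 cortex markers did not tell cortex (966 to 1304 TPM) from hippocampus (1238 to 1466). Fmr1 was lower in KO in every tissue, by 1.61 to 1.97 on the log2 scale in 5 of them, but in muscle it measured 11.99, 17.6 and 14.2 CPM (reads corrected for library size within the comparison, not for length) in WT and 8.06, 10.2 and 10.3 in KO (-0.61 ± 0.17, SE; not called). In the first N2a experiment Fmr1 went against a label: it measured 34.0 TPM in siNT 1 but 5.66 TPM in the library labelled siNT 2, within the 0.70 to 6.62 TPM of the siFmr1 libraries. In bulk tissue, fewer cells of a type and less RNA per cell cannot be told apart.

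Levels of different genes were compared in TPM. In WT brain Tef, Nr1d1, Nr1d2 and Dbp were the highest of the 10, and Per2, Per3, Cry1 and Ciart were low, apart from Cry1 in cerebellum. In WT cortex Tef measured 232 ± 3.72 TPM (mean ± SD, n = 3 throughout), Nr1d1 126 ± 8.64, Nr1d2 113 ± 3.75 and Dbp 100 ± 0.391, followed by Arntl (39.4 ± 2.3), Per1 (34.9 ± 3.99) and Ciart (28.4 ± 1.78). Per3 (18 ± 2.74), Per2 (17.1 ± 0.666) and Cry1 (16.7 ± 0.662) could not be ordered beyond their spread. Outside the brain the order changed. Dbp led in liver (165 ± 27.6) and muscle (175 ± 19.8), while Arntl was the lowest in liver at 0.713 ± 0.397 TPM, which limits its precision there. Testis held little of most members: Per1 (51.7 ± 0.915) and Cry1 (31.9 ± 0.968) were the highest, and Dbp was at 7.8 ± 1.9 and Per2 at 2.3 ± 0.127.

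**Figure D1:**
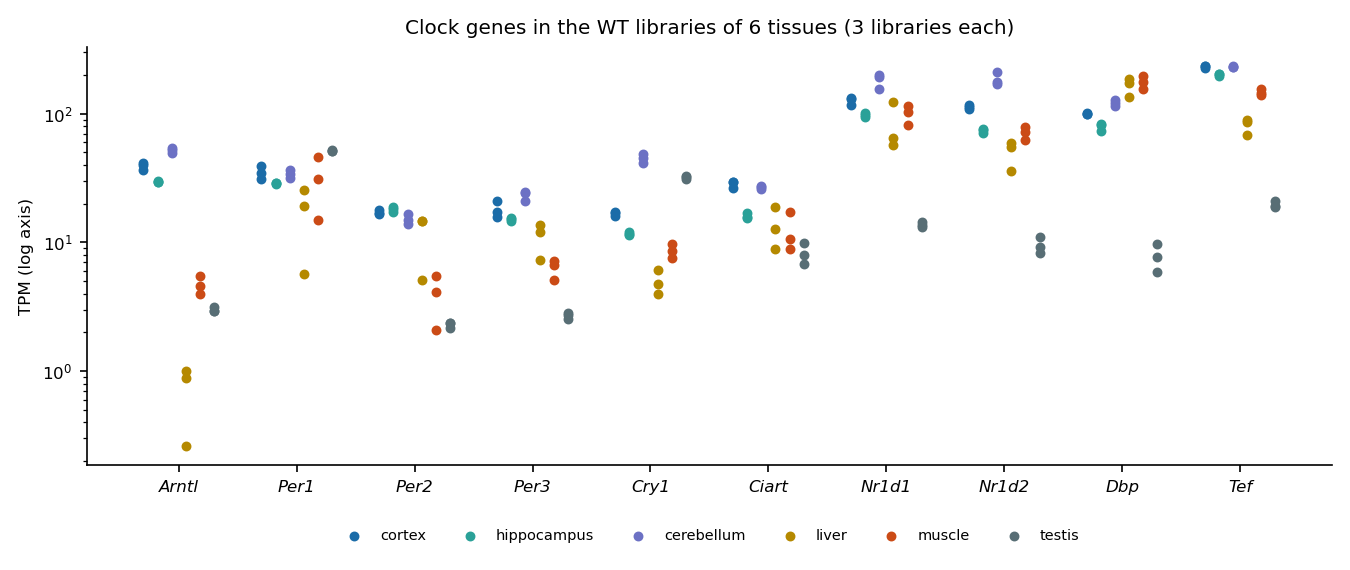
TPM on a log axis (vertical) of the 10 clock genes (horizontal) in the WT libraries; each point is 1 library, and colours mark the 6 tissues, with 3 libraries each. Arntl in liver lies at 0.26 to 1 TPM, the lowest of all, and Tef in cortex and cerebellum lies at 228 to 235 TPM.

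WT brain regions were compared with each other, a readout that the choice of genes did not use. Most members differed between regions, where 43.4% to 68.0% of all genes did, and for most members hippocampus was the low one. In hippocampus 8 of the 10 members were called lower than in cortex (edgeR quasi-likelihood test on counts, adjusted p under 0.05 over all genes) and none higher, where 43.4% of all 15239 tested genes were called in either direction. Ciart, a repressor of BMAL1, differed most: its WT libraries measured 29.5, 26.3 and 29.4 TPM in cortex and 16.8, 15.5 and 15.7 in hippocampus, without overlap (-0.82 ± 0.09 on the log2 scale, edgeR adjusted p 3.62e-05). Nr1d2 (-0.61 ± 0.07), Cry1 (-0.52 ± 0.08), Arntl (-0.41 ± 0.06) and Nr1d1 (-0.37 ± 0.09) were also lower. Per2 (0.08 ± 0.07, adjusted p 0.389) and Per3 (-0.26 ± 0.10, adjusted p 0.0576) were not called, and Per1 (-0.28 ± 0.09) was called in 4 of the 9 fits that left out 1 library.

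Cerebellum stood apart by Cry1, whose protein is a core repressor of the loop. Its WT libraries measured 41.5, 44.9 and 48.7 TPM in cerebellum, 17.3, 15.99 and 16.97 in cortex and 11.5, 11.4 and 12.02 in hippocampus, so that the 3 regions did not overlap. The difference of cerebellum from cortex was 1.31 ± 0.07 (edgeR adjusted p 1.85e-08) and from hippocampus 1.84 ± 0.07 (edgeR adjusted p 1.17e-09). Against cortex, 5 members were called higher (Cry1, Nr1d2, Nr1d1, Arntl and Per3) and 2 lower (Per2 and Tef), against 67.9% of all genes called. Against hippocampus, 7 were called higher and Per2 lower (68.0% of all genes), and Per1 and Tef were not called. Per2, a repressor with Per1, thus had its lowest brain level in the region where Cry1 had its highest, at 15.2 ± 1.29 TPM against 17.1 ± 0.666 in cortex (-0.29 ± 0.07, edgeR adjusted p 0.00341). Of the 17 other clock genes, 2 were called higher and 8 lower in hippocampus than in cortex, and 8 higher and 8 lower in cerebellum than in cortex. Among them Rora (1.96 ± 0.07), which encodes an activator at ROREs, was higher in cerebellum than in cortex, whereas Rorb (-2.59 ± 0.10) and Npas2, a partner of BMAL1 (-3.16 ± 0.13), were lower. The number of members called in cerebellum against cortex was 5 to 8 over the fits that left out 1 library, with Per3 called in 3 of 9 and Tef in 7 of 9.

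The comparison of KO with WT asked how loss of FMRP changed transcripts in each tissue. In cortex the member that stood out was Nr1d1, the REV-ERB alpha repressor of Arntl, and Ciart and Dbp were lower with it. Nr1d1 measured 130, 128 and 114 CPM in WT and 79.2, 82.3 and 79.95 in KO, a log2 difference of -0.62 ± 0.06. All KO libraries were below all WT libraries. Ciart measured 13.2, 11.6 and 12.8 CPM in WT and 9.46, 9.14 and 7.20 in KO (-0.54 ± 0.12), and Dbp, an activator of output genes, 56.1, 54.9 and 54.8 CPM in WT and 47.7, 43.0 and 41.1 in KO (-0.33 ± 0.07). Neither overlapped between genotypes. Arntl, on which Nr1d1 acts, overlapped at 43.0, 41.5 and 38.0 CPM in WT and 37.5, 37.7 and 44.1 in KO (-0.04 ± 0.08). Per1 was also lower by a bare margin, with the lowest WT and the highest KO library at 53.3 CPM, and Nr1d2 was higher (0.08 ± 0.05). Of the 10 members 1 was called, Nr1d1, where edgeR called 0.0203% of all genes, and 5 did not overlap, where 26.0% of all genes did not. DESeq2 called 3 (Nr1d1, Ciart and Dbp; 6.25% of all genes). The Nr1d1 call was lost without any 1 of the cortex libraries except WT 3, and without WT 3 there were 3 calls (Nr1d1, Dbp and Per1).

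In hippocampus Nr1d1, Ciart and Dbp were again lower in KO, by smaller amounts, and Per2 was lower and Tef higher. Nr1d1 measured 94.3, 99.9 and 97.8 CPM in WT and 78.1, 84.0 and 78.7 in KO (-0.28 ± 0.05). Ciart measured 7.60, 6.86 and 7.06 CPM in WT and 6.14, 5.83 and 5.02 in KO (-0.34 ± 0.11). Both were without overlap, as was Dbp, which differed by -0.17 ± 0.06. Per2 measured 38.6, 40 and 41.7 CPM in WT and 34.7, 35.8 and 37.5 in KO (-0.16 ± 0.05), and Tef, related to DBP, 323, 317 and 308 CPM in WT and 358, 352 and 336 in KO (0.14 ± 0.04). Arntl overlapped (0.10 ± 0.06). EdgeR called 0 members (0.209% of all genes called), and DESeq2 called 1, Nr1d1 (1.75%). At an unadjusted p under 0.05 edgeR had 5 members. Here and below, a count at an unadjusted p has no share of all genes at that threshold beside it. Nothing is read from such counts. The 5 members without overlap compare with 18.8% of all genes.

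In cerebellum the pattern differed: Per2 was higher in KO and Nr1d1 and Dbp overlapped. Per2 measured 29.8, 32.3 and 34.4 CPM in WT and 38.7, 38.0 and 41.7 in KO (0.29 ± 0.07), with every KO library above every WT library. Tef was higher by 0.08 ± 0.04 and Ciart lower by 0.07 (-0.07 ± 0.08), both without overlap. Nr1d1 measured 191, 187 and 146 CPM in WT and 159, 161 and 146 in KO, and WT 3 alone brought the groups together. EdgeR called 0 members (0.226% of all genes called), and DESeq2 called Per2 (0.643%). At an unadjusted p under 0.05 edgeR had 1 member, a threshold with no share of all genes given. Of all genes 14.7% did not overlap. Without WT 3 edgeR called 2, Nr1d1 (-0.29) and Per2 (0.34).

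A joint model of the 3 brain regions asked, for 15504 genes, whether the difference between KO and WT was itself unequal among regions. EdgeR called 0 members for hippocampus against cortex and 0 for cerebellum against cortex (0.0% of all genes called in each). For cerebellum against hippocampus it called 0 (0.00645%). At an unadjusted p under 0.05 there were 3, 4 and 1 members in this order, a threshold with no share of all genes given. The differences were 0.45 ± 0.11 for Nr1d1 between cerebellum and cortex (edgeR adjusted p 0.145) and 0.44 ± 0.09 for Per2 between cerebellum and hippocampus (edgeR adjusted p 0.366). DESeq2 called 0, 2 and 1 members (0.413%, 1.57% and 0.0838% of all genes): Nr1d1 (DESeq2 adjusted p 0.0200) and Dbp (DESeq2 adjusted p 0.0429) between cerebellum and cortex, and Per2 between cerebellum and hippocampus (DESeq2 adjusted p 0.00968). The calls therefore depended on the tool.

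**Figure D2:**
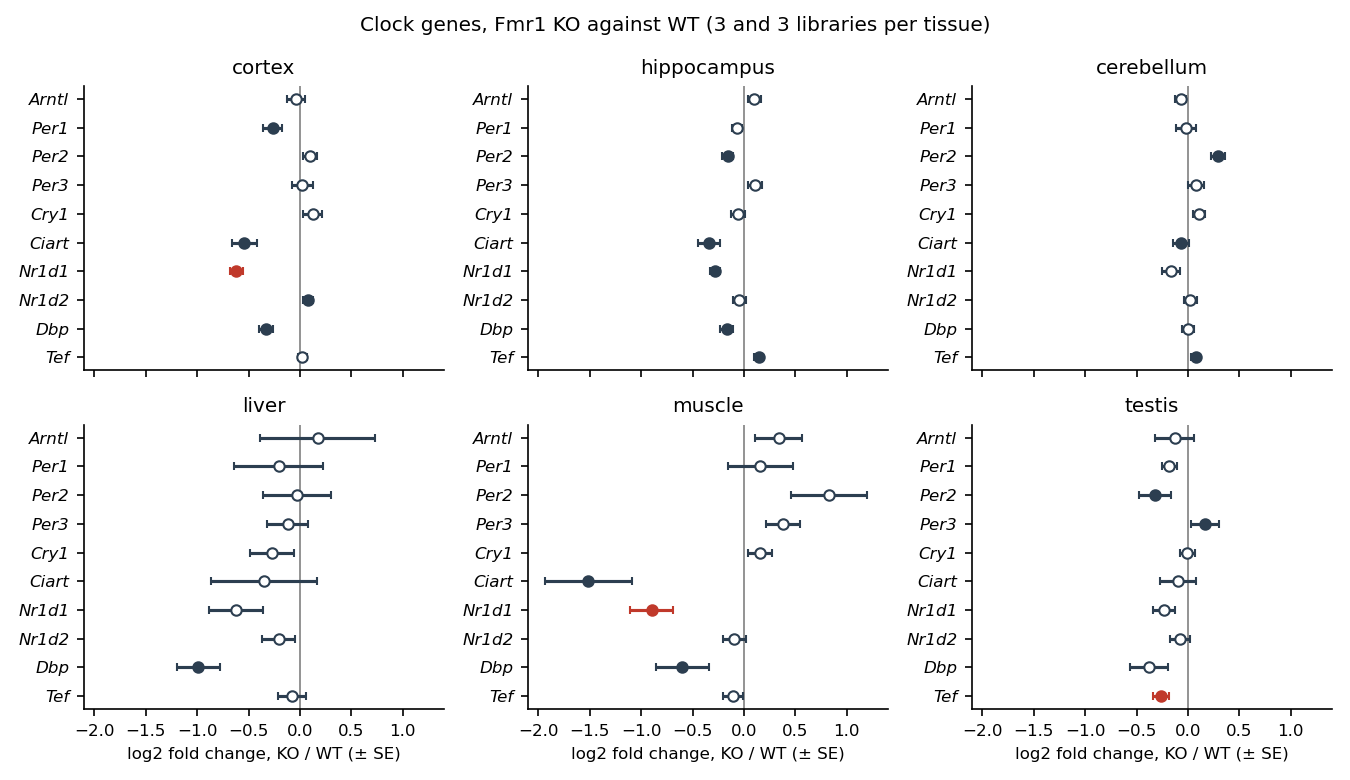
Log2 fold change of KO against WT (horizontal, ± SE) for each clock gene (vertical) in 6 tissues, with 3 libraries per genotype. Red points were called by edgeR, filled dark points were not called but had no overlap between KO and WT libraries, and open points overlapped; Nr1d1 in cortex and muscle and Tef in testis are red, and Arntl is open in all 6 panels.

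Values of other genes moved with genotype in the brain. The summed level of 10 genes that respond to glucocorticoids, hormones that also drive Per1, was lower in KO in cortex (1413 to 1559 TPM, against 1574 to 1733 in WT) and in hippocampus (1766 to 2166 against 2287 to 2413), with every gene of the list present. Such a sum mostly follows its most abundant genes. Of the 10 genes, 2 were lower without overlap in each region, where 26.0% and 18.8% of all genes did not overlap. EdgeR called 0 in both, and 1 gene in cortex and 3 in hippocampus had differences above 0. In cerebellum the sums overlapped (2859 to 3325 against 2943 to 3042), although Zbtb16 of that list was called lower (-0.84 ± 0.13). The 3 oligodendrocyte markers summed to 4313 to 4504 TPM in hippocampus of KO and 5310 to 5583 of WT, and the 3 astrocyte markers to 408 to 418 and 373 to 396. There the 4 cortex markers summed to 1267 to 1466 TPM in KO and 1238 to 1258 in WT, also without overlap. Fibroblast markers (3) summed to 110 to 116 TPM in hippocampus of KO and 85.8 to 105 of WT, and choroid plexus markers (3) overlapped but ran from 32.1 to 11410 TPM across the hippocampus libraries. In cerebellum, where Per2 was higher in KO, the 3 endothelium markers were higher in KO (85.4 to 93.99 TPM, against 70.9 to 82.99), the 3 microglia or macrophage markers lower (59.3 to 65.3 against 66.1 to 71.8) and the 3 markers of neuronal lines higher (1883 to 1953 against 1708 to 1780). In cortex the blood markers (2 of 3 listed) summed to 388 to 398 TPM in KO and 437 to 554 in WT, and the 3 microglia or macrophage markers to 173 to 182 and 187 to 189. Their part in the differences of the clock genes was not tested. Of the 17 other clock genes, edgeR called 0 in cortex, hippocampus and cerebellum. At an unadjusted p under 0.05 there were 4, 3 and 2, and by DESeq2 1, 0 and 0 calls. The clock output genes (6 of 8 listed) summed to 241.8 to 247.9 TPM in cortex of KO and 256.6 to 264.1 of WT, without overlap. Their sums overlapped in hippocampus and cerebellum, and edgeR called 0 of them in each region.

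Among the tissues, the SE of most members was largest in liver. For Dbp and Per2 it was larger in muscle (0.26 and 0.37, against 0.21 and 0.33 in liver). Dbp was lower in KO: its libraries measured 182, 176 and 128 CPM in WT and 78.1, 61.9 and 105 in KO, without overlap (-0.99 ± 0.21). Nr1d1 measured 104, 201 and 108 CPM in WT and 70.1, 106 and 92.3 in KO (-0.62 ± 0.26), and WT 2 was far above the other 5 libraries. Arntl was too low to be read, at 1.84, 1.52 and 0.453 CPM in WT and 1.24, 2.47 and 0.686 in KO. Per1 measured 18.3, 72.5 and 56.1 CPM in WT and 53.0, 27.6 and 46.8 in KO, so that WT 1 was the lowest library and WT 2 the highest. EdgeR called 0 members (0.411% of all genes called), and DESeq2 called Dbp (2.3%). At an unadjusted p under 0.05 edgeR had 2 members, a threshold with no share of all genes given. Between genotypes 1 member did not overlap, where 17.3% of all genes did not. Of the other clock genes, 1 of 14 was called: Bhlhe41, which encodes a repressor at E-boxes, at 13.5 ± 2.68 CPM in WT and 1.59 ± 0.39 in KO (-3.09 ± 0.25, edgeR adjusted p 0.00123).

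Muscle held the widest difference of the 10 genes, that of Ciart. Nr1d1, Ciart and Dbp were lower in KO, while Arntl, Per2, Per3 and Cry1 had higher means with overlapping libraries. Nr1d1 measured 210, 143 and 182 CPM in WT and 89.3, 71.4 and 127 in KO (-0.89 ± 0.21). Ciart measured 7.54, 8.48 and 14 CPM in WT and 3.74, 1.21 and 5.48 in KO (-1.51 ± 0.42), and Dbp 163, 175 and 196 CPM in WT and 125, 66.0 and 161 in KO (-0.60 ± 0.26). KO 2 was the lowest library of all for these 3 genes. It was also the highest for Arntl, which measured 10.6, 7.35 and 8.43 CPM in WT and 9.24, 15.1 and 8.99 in KO (0.34 ± 0.23). Per2 measured 8.47, 15.8 and 21.2 CPM in WT and 28.1, 14.1 and 38.4 in KO (0.83 ± 0.37), so KO 2 alone fell among the WT libraries. EdgeR called 1 member, Nr1d1 (4.04% of all genes), and 3 did not overlap (31.4% of all genes); DESeq2 also called 1, Nr1d1 (8.63%). The Nr1d1 call was kept in 1 of 6 fits without 1 library, that without WT 2, and the difference of Dbp ranged from -0.90 to -0.31 over these fits.

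In muscle the scaling mattered. The median of all tested genes was 0.22 higher in KO on the log2 scale of the deposited TPM values, against -0.02 to 0.04 in the other 5 tissues, and CPM scaled by TMM sets it near 0. In TPM, Nr1d1 (81.4 to 115 in WT, 45.2 to 87.2 in KO) and Dbp (156 to 195 and 72.6 to 193) overlapped, Arntl (3.97 to 5.45 and 5.68 to 9.06), Cry1 (7.63 to 9.67 and 10.7 to 11.9) and Per3 (5.13 to 7.14 and 7.30 to 12.1) were higher in KO without overlap, and Nr1d2 (0.14) and Tef (0.12) had differences above 0, against -0.09 and -0.11 in CPM. Ciart was lower without overlap on both scales.

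Immediate early genes, which cells induce within minutes of a stimulus and some of whose inducers also raise Per1, varied with the libraries of both tissues. Their summed level was 170 TPM in liver WT 1, 2063 in WT 2, 2668 in WT 3 and 106 to 222 in KO (8 of 11 genes listed). In muscle it was 426 TPM in WT 1, 2242 in WT 2, 2451 in WT 3 and 490 to 900 in KO (11 of 11). In both tissues WT 1 lay within or below the range of the KO libraries, and WT 1 was also the lowest of the 6 libraries for Per1 and Per2. Nr1d1 did not follow this order in muscle, where WT 1 was its highest library. In muscle edgeR called 5 of the 11 lower (Egr1, Fos, Egr2, Arc and Ier2, with log2 differences from -4.25 for Egr1 to -1.89 for Ier2). In liver it called 1 of 8 lower (Dusp1, -3.03 ± 0.43). DESeq2 called 6 of 11 lower in muscle and 5 of 8 in liver (8.63% and 2.3% of all genes called). The other clock gene called in muscle, Bhlhe40, measured 225 ± 17.3 CPM in WT and 117 ± 6.02 in KO (-0.95 ± 0.10, edgeR adjusted p 0.00535), 1 of 15 tested. Muscle KO libraries also held more of the 3 fibroblast markers (1295 to 1733 TPM, against 590.0 to 1108), of the 3 microglia or macrophage markers (81.7 to 88.9 against 39.0 to 43.7) and of the 3 adipocyte markers (34.9 to 116 against 21.4 to 22.8), and liver KO libraries more of the fibroblast markers (145 to 156 against 103 to 110). The part of these genes in the results was not tested.

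**Figure D3:**
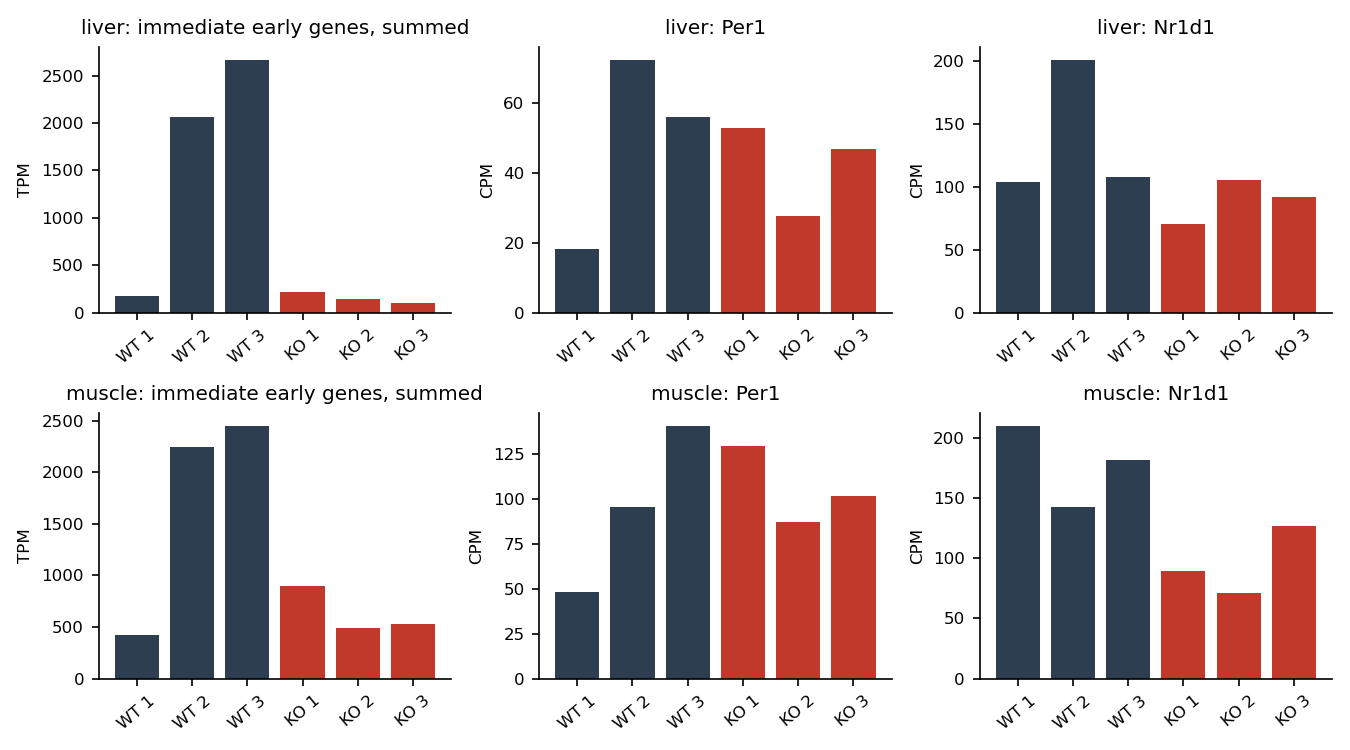
Summed TPM of the immediate early genes and CPM of Per1 and Nr1d1 (vertical, from 0) in each liver (top) and muscle (bottom) library; dark bars are WT and red bars KO. WT 2 and WT 3 hold 2063 to 2668 TPM of immediate early genes, and WT 1 and the KO libraries 106 to 900.

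In testis the differences were small and most members were at low levels. Tef measured 48.9, 45.7 and 46.0 CPM in WT and 39.2, 39.2 and 39.1 in KO (-0.26 ± 0.08), without overlap. Per2 was lower (7.85, 7.26 and 8.14 CPM in WT and 6.12, 5.54 and 6.90 in KO, -0.32 ± 0.16) and Per3 higher (9.65, 8.88 and 9.65 against 10.3, 10.8 and 10.5, 0.16 ± 0.13), both also without overlap. Nr1d1 (-0.23 ± 0.11), Dbp (-0.38 ± 0.18) and Arntl (-0.13 ± 0.19) overlapped. EdgeR and DESeq2 each called Tef (4.27% and 3.1% of all genes), and 3 members did not overlap, where 20.6% of all genes did not. The Tef call was lost without any 1 library except KO 1, and without KO 1 Per1 was called too (-0.31). The 4 Leydig cell markers summed to 2899 to 3247 TPM in KO and 3293 to 4260 in WT. The glucocorticoid list summed to 2152 to 2310 and 1973 to 2044, although 7 of its 10 genes had differences below 0. The part of both lists was not tested. Of the other clock genes edgeR called 0 of 15, with 1 at an unadjusted p under 0.05, and DESeq2 0. Their summed level (16 of 17 listed) was 190 to 196 TPM in KO and 201 to 204 in WT, without overlap. That of the clock output genes (7 of 8 listed) went the other way without overlap, at 431.4 to 442.1 TPM in KO and 417.5 to 426.8 in WT.

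The sources used here do not say whether the tissues came from the same animals, so the 6 tissues may not be independent. Among the KO libraries of both liver and muscle, number 2 was the lowest for Ciart, Dbp, Per1 and Per2 and the highest for Arntl. Set side by side, Nr1d1 had a difference below 0 in all 6 tissues (-0.17 in cerebellum to -0.89 in muscle), as did Dbp apart from cerebellum, where it was -0.00 ± 0.06, and Ciart (-0.07 in cerebellum to -1.51 in muscle). The sign of Ciart turned in liver without KO 2 (0.04) and in testis without WT 3 (0.06). Of all 60 member differences between KO and WT, 15 changed sign in at least 1 of the fits without 1 library. Arntl had differences on both sides of 0 (-0.13 in testis to 0.34 in muscle) and overlapped between genotypes in every tissue. In 3 tissues (cortex, hippocampus and muscle) Nr1d1, Dbp and Ciart were all lower without overlap, and in none of these was Arntl separated in CPM; in muscle TPM, Nr1d1 and Dbp overlapped and Arntl was separated. The Per genes did not share a direction: Per2 was lower in hippocampus and testis, higher in cerebellum, and overlapped elsewhere. Nr1d2, the close relative of Nr1d1, moved little anywhere (-0.21 in liver to 0.08 in cortex).

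**Figure D4:**
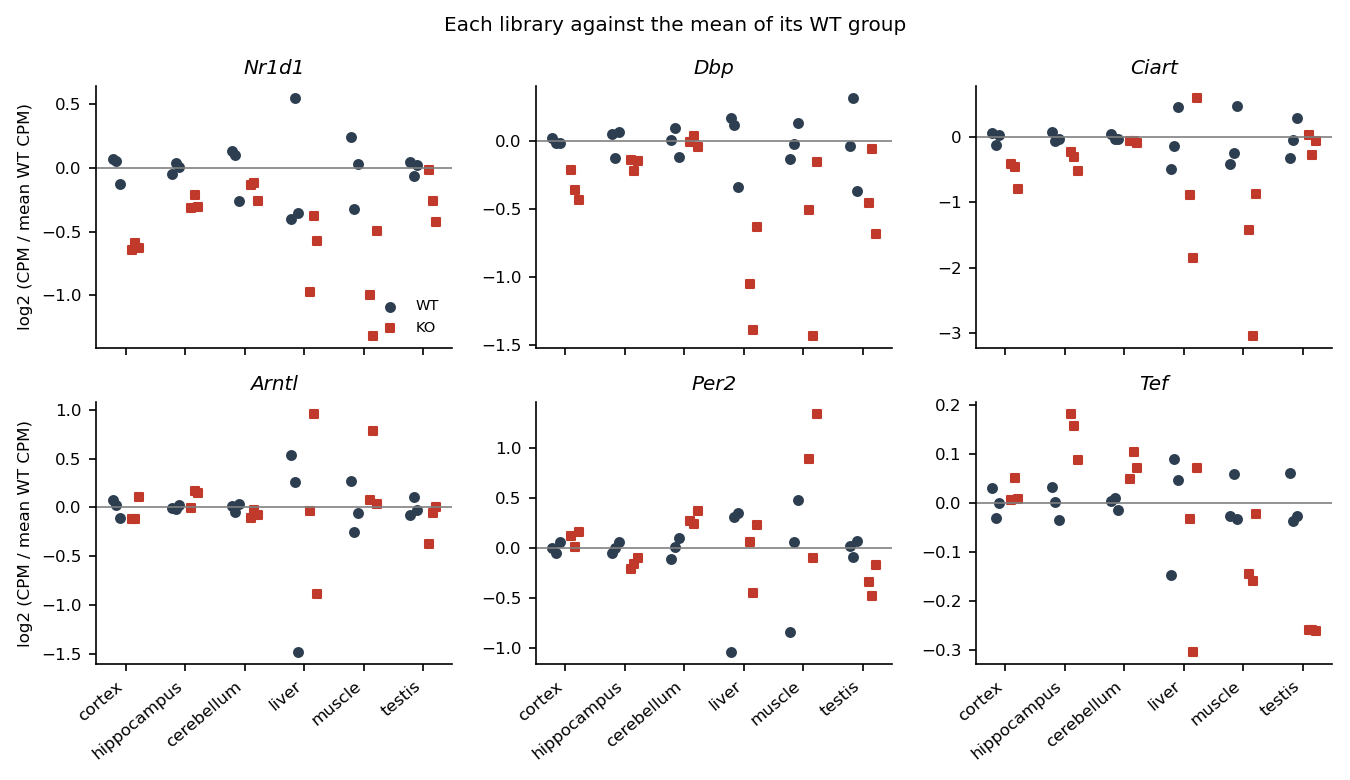
Each library's log2 CPM relative to the mean CPM of its WT group (vertical), for 6 clock genes (panels) across 6 tissues (horizontal); circles are WT and squares KO. For Nr1d1 the squares lie below all circles in cortex, hippocampus and muscle, and for Arntl the symbols overlap in every tissue.

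How far libraries of 1 group varied together with Nr1d1 was described over the 36 tissue libraries, after subtracting from each the mean of its own tissue and genotype. The other members followed Nr1d1 weakly, from a Pearson correlation of -0.07 for Cry1 to 0.35 for Dbp (Spearman 0.17), with 0.13 for Arntl. Of 10352 genes, the most alike were Ubash3b (0.84), Fbxo21 (0.80), Enah (0.77), Hspa2 (0.77) and Gltscr1 (0.77), and the least alike Arl6 (-0.75), Pyroxd1 (-0.74), Ufsp2 (-0.73), Pik3r3 (-0.73) and Hcn2 (-0.73). The values rested in part on the widely spread liver libraries: without liver Enah fell to 0.45 and Hspa2 to 0.48, and Dbp rose to 0.52. Without muscle Dbp fell to 0.09 and Ciart from 0.20 to -0.09. Where only the tissue mean was subtracted, so that genotype differences stayed in, Ubash3b fell to 0.19 and Enah to 0.04, and Dbp rose to 0.68 and Ciart to 0.60. Some pairs of the other members varied together more closely, again after subtracting the mean of the own tissue and genotype. Arntl went against all of them, from -0.78 with Ciart to -0.25 with Dbp. Per2 went with Per3 (0.83) and Per1 (0.80), and the weakest pair was Nr1d2 with Dbp (0.05). How far these pairs rested on liver or muscle was not tested. Thra, the gene that overlaps Nr1d1, differed by 0.02 to 0.05 between genotypes in the brain regions, -0.24 in liver, -0.26 in muscle and -0.02 in testis, and was not called in any tissue. In the co-transfection experiment Thra was called, at 0.35 after siFmr1 and -0.28 after siMbnl1 against siNT_pcDNA and 0.63 between the siRNAs. So were Camta1, which overlaps Per3 (0.48 after siFmr1 and 0.55 after siMbnl1), and C920021L13Rik, which overlaps Ciart (-1.58 after siMbnl1). The part of shared reads in the members' values was not tested.

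In the first N2a experiment no member was called by edgeR (0 at an unadjusted p under 0.05; 0.0% of all genes) or by DESeq2 (0; 0.0%). For several members the libraries did not split by label. Nr1d2 measured 92.9 CPM in siNT 1 and 40.5 in the library labelled siNT 2, and 66.8, 72.3 and 28.9 in siFmr1. Per1 measured 4.59 and 15.6 CPM in siNT and 3.50, 12.7 and 13.3 in siFmr1, and Ciart 2.40 and 12.2 against 2.31, 7.17 and 7.40. Arntl (19.6 and 23.1 CPM in siNT and 26.6, 23.6 and 36.7 in siFmr1, 0.44 ± 0.34) and Per2 (6.79 and 5.57 against 6.99, 16.3 and 9.27, 0.81 ± 0.48) were higher in siFmr1 without overlap. With Fmr1 low in the library labelled siNT 2, no direction can be drawn from either. The co-transfection experiment below had 3 libraries in every group, with Fmr1 at 2819 to 3604 normalized counts in siNT_pcDNA and 583 to 612 in siFmr1_pcDNA.

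After siFmr1 in co-transfected cells, Arntl was higher and nearly all other members were lower. Values are the deposited normalized counts, which are not per length, and log2 differences are on the scale of log2(value + 1). Arntl measured 571, 572 and 522 in siNT_pcDNA and 1068, 1041 and 1020 in siFmr1_pcDNA (0.91 ± 0.09), so all siFmr1 libraries were above all siNT libraries. Per3 measured 354, 437 and 361 in siNT_pcDNA and 213, 226 and 218 in siFmr1_pcDNA (-0.80 ± 0.13). Nr1d2 measured 3395, 4069 and 3527 against 2338, 2255 and 2389 (-0.65 ± 0.07), and Ciart 521, 450 and 653 against 313, 363 and 317 (-0.69 ± 0.13). These did not overlap, and neither did Nr1d1 (-0.47 ± 0.10), Per1 (-0.57 ± 0.10), Cry1 (-0.33 ± 0.07) and Tef (-0.25 ± 0.07). Per2 (-0.17 ± 0.15) and Dbp (-0.27 ± 0.15) overlapped. Limma called 8 of 10, 1 higher and 7 lower, where 37.0% of all 16242 genes were called; as knockdown of Fmr1 is the contrast that guided the choice, nothing is read from this count. The median of the members was -0.40, and that of all genes 0.03.

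After siMbnl1, which lowers Mbnl1 (1408 to 1538 against 3759 to 5017 normalized counts) and leaves Fmr1 at 2764 to 3092, the Per genes were lower and most other members changed less. Per3 measured 191, 164 and 218 (-1.01 ± 0.13, limma adjusted p 3.32e-05), Per2 236, 180 and 251 against 361, 402 and 345 in siNT_pcDNA (-0.74 ± 0.15, limma adjusted p 0.00125), and Per1 1016, 1098 and 1133 against 1289, 1652 and 1703 (-0.51 ± 0.10, limma adjusted p 0.000877). All 3 were without overlap. Tef (-0.25 ± 0.07) and Nr1d2 (-0.24 ± 0.07) fell and Arntl rose (0.29 ± 0.09, limma adjusted p 0.0167), with 6 members called where 32.8% of all genes were. Nr1d1 (0.01 ± 0.10), Cry1 (0.00 ± 0.07), Dbp (0.01 ± 0.15) and Ciart (-0.22 ± 0.13) were not called. A fit of only the compared groups called the 3 Per genes alone. The call of Arntl was lost without siNT_pcDNA 3 or siMbnl1_pcDNA 3, and that of Nr1d2 without siNT_pcDNA 2 (-0.16) or siMbnl1_pcDNA 1.

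The siRNAs were then compared with each other, a comparison added after their values were seen. It leaves out the siNT_pcDNA libraries, but its siFmr1_pcDNA libraries belong to the contrast that guided the choice of genes. Its values are therefore a description. Limma called 6 of 10 members, where 35.3% of all genes were called, and nothing is read from this count. Arntl was higher with siFmr1_pcDNA (1020 to 1068) than with siMbnl1_pcDNA (655 to 722; 0.62 ± 0.09, limma adjusted p 5.75e-05), as was Per2 (0.57 ± 0.15, limma adjusted p 0.00689). Nr1d1 (-0.48 ± 0.10), Ciart (-0.47 ± 0.13), Nr1d2 (-0.41 ± 0.07) and Cry1 (-0.33 ± 0.07) were lower with siFmr1_pcDNA. Nr1d1 measured 1091, 1036 and 936 with siFmr1_pcDNA and 1287, 1590 and 1395 with siMbnl1_pcDNA, without overlap. Per1 (-0.07 ± 0.10), Per3 (0.20 ± 0.13), Tef (-0.00 ± 0.07) and Dbp (-0.27 ± 0.15) were not called.

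**Figure D5:**
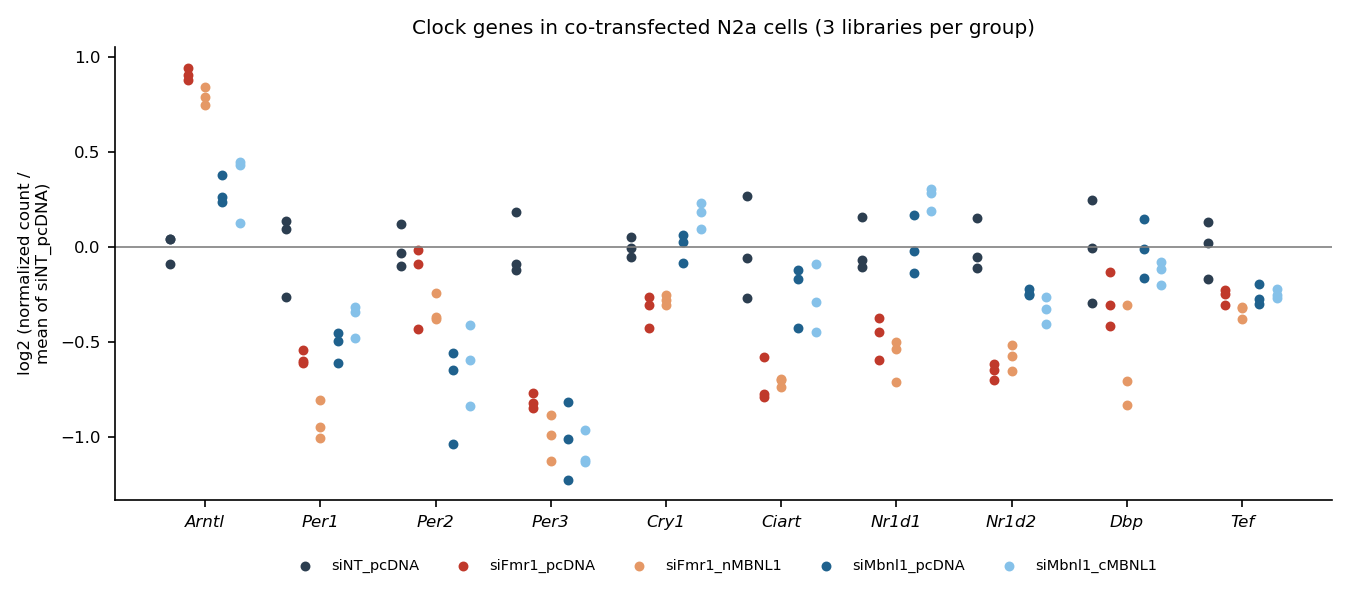
Log2 normalized count of each co-transfected N2a library relative to the mean of siNT_pcDNA (vertical) for the 10 clock genes (horizontal); each point is 1 library and colours mark the 5 groups of 3. Arntl lies above the siNT_pcDNA libraries in all 4 other groups, highest with siFmr1_pcDNA (1020 to 1068 normalized counts), and Per3 lies below them in all 4.

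Adding MBNL1 moved no member past the threshold, although Mbnl1 rose to 11030 to 13250 normalized counts with the nuclear form and 16770 to 23340 with the cytosolic form. With nuclear MBNL1 added to siFmr1 cells, limma called 0 members against siFmr1_pcDNA (1.76% of all genes called). With cytosolic MBNL1 added to siMbnl1 cells it called 0 against siMbnl1_pcDNA (2.24%). At an unadjusted p under 0.05 there were 2 members in each, a threshold with no share of all genes given. Limma was the single tool used on these values, and a fit of only the compared groups called 1 in each, Per1 and Nr1d1. Per1 measured 888, 773 and 803 with siFmr1_nMBNL1 against 1021, 1013 and 1064 with siFmr1_pcDNA (-0.33 ± 0.10, limma adjusted p 0.0880), and Nr1d1 1718, 1743 and 1613 with siMbnl1_cMBNL1 against 1287, 1590 and 1395 with siMbnl1_pcDNA (0.25 ± 0.10, limma adjusted p 0.157). Both sets were without overlap. Against siNT_pcDNA, siFmr1_nMBNL1 had 9 members called (41.1% of all genes), Arntl higher (0.79 ± 0.09) and 8 lower, with Per2 not called, and siMbnl1_cMBNL1 had 7 (33.7%), Arntl (0.34 ± 0.09) and Nr1d1 (0.26 ± 0.10) higher and 5 lower. That call of Nr1d1 was kept in 1 of 6 fits without 1 library, the one without siNT_pcDNA 3, and a fit of only the compared groups called 3 members (Per2, Per3 and Nr1d2). These comparisons share the siNT_pcDNA libraries with those above.

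Other clock genes moved in both directions after siFmr1: of 17, limma called 3 higher, among them Arntl2, and 5 lower, among them Hlf, Clock and Bhlhe41. Of all genes, 37.0% were called after siFmr1 and 32.8% after siMbnl1, so nothing is read from the counts in this paragraph. Hlf, which encodes the relative of DBP and TEF, measured 1041 in siNT_pcDNA and 463 in siFmr1_pcDNA on average (-1.17 ± 0.08), and Clock, the partner of BMAL1, 3360 and 2143 (-0.64 ± 0.11), so the 2 partners Arntl and Clock differed in opposite directions. After siMbnl1, 1 of 17 was called higher (Nfil3, 0.34 ± 0.10) and 5 lower, among them Bhlhe40 (-0.55 ± 0.09) and Clock (-0.33 ± 0.11). Of 8 clock output genes, 1 was called higher and 2 lower after siFmr1, and 3 higher and 1 lower after siMbnl1; Usp2, a deubiquitinase under clock control, was higher in both (1.72 ± 0.32 and 1.91 ± 0.32), and these 2 values share their controls.

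Splicing of the members was a readout that the choice of genes did not use. Skipped exons were tested from junction reads in 11 tables, with a call at an adjusted p under 0.05 and an inclusion difference of at least 10 percentage points. Over these tables, 218 tests of 44 exons of the 10 genes gave 0 calls by the quasi-binomial test (20 at an unadjusted p under 0.05). Of all tests, 0.0816% were called in the 6 tissue tables and 0.619% in the 5 N2a tables. In cortex, hippocampus and cerebellum 0 of 3931, 4622 and 5942 exons were called, so 0 for the members there shows nothing about them. The 1501 calls over all tables fell to 0 to 2 in fits without 1 replicate, so those fits show nothing about the members either. Smaller differences passed the p threshold for 3 exons. The 644-base exon of Nr1d1 at chr11:98770188-98770831 was included at 90.5% ± 2.62 (SD, n = 3) in set 1 and 98.1% ± 0.379 in set 2 of the table listed for siMbnl1_cMBNL1 (adjusted p 0.00756 over all exons by the quasi-binomial model), and at 92.4% ± 0.778 and 98.1% ± 0.379 in that for siMbnl1_pcDNA (adjusted p 0.0669). The 620-base exon of Nr1d2 at chr14:18214874-18215493 was included at 95.2% ± 1.17 and 100% in the table for siFmr1_nMBNL1, and its 89-base exon at chr14:18219968-18220056 at 91.3% ± 4.63 and 100% in liver. The table headers do not say which group is set 1, so no direction is given for these differences. Set 2 of the Nr1d1 exon had the same value (98.1% ± 0.379) for siMbnl1_cMBNL1 and siMbnl1_pcDNA, so these results may share their set 2 libraries. By the authors' deposited table, 3 of 282 member entries had a false discovery rate under 0.05 and a difference of at least 10 points, where 1.7% of all entries did. These were 2 exons, 1 of Nr1d2 in 2 tables and 1 of Per3, each resting on a mean of 6.3 to 12.7 junction reads per library in at least 1 set.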

How the data were processed

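RNA-seq of 56 samples was used. Per the submitters' processing notes, reads were processed with CASAVA, FastQC 0.11.8, Trimmomatic 0.39, Bowtie2 2.3.5, STAR 2.6.1, RSEM 1.3.1 and DESeq2 1.16.1 on GRCm38 (mm10); which step used which tool is not given in the sources used here. The tissue and first N2a tables hold the authors' expected counts and TPM, per the file headers, and the deposited co-transfection table holds counts that the authors normalized (signal; no whole reads could be recovered). The 4 rows with date-like names and 4 per-sample muscle columns that match no labelled sample were not used. The authors' deposited skipped-exon tables give junction read counts, p-values and inclusion fractions.

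Expected counts were rounded, filtered with filterByExpr, scaled by TMM and tested with the quasi-likelihood test of edgeR 4.0.16 within each comparison; DESeq2 1.42.0 was an alternative. Normalized values with a mean of at least 1 were tested with limma 3.58.1 on log2(value + 1). Junction reads (mean of at least 20) were tested with a quasi-binomial model. P-values were adjusted by Benjamini-Hochberg over all features tested. The scripts were tested on simulated data. The members and the gene lists were chosen with earlier results of these data known. Named genes are the members, label checks, called genes of the lists with the largest differences (some are not reported here), and the genes most and least like Nr1d1. Depth sets the precision of low values such as Arntl in liver.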

Additional observations from a re-analysis of the deposited data

Results flagged for a closer look

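Opposite directions in different tissues, with no overlap between KO and WT libraries in either tissue, were found for 2 members. Per2 was higher in KO in cerebellum and lower in hippocampus, a gap of 0.45 between the log2 fold changes (edgeR interaction adjusted p 0.366, DESeq2 adjusted p 0.00968), and it was lower in testis, a gap of 0.61 from cerebellum. Tef was higher in hippocampus and cerebellum and lower in testis, with gaps of 0.40 and 0.33. The gaps that involve testis were not tested, because testis and brain were counted in separate tables.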

How the results depend on the processing

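With DESeq2 the number of the 10 members called was 3 in cortex, 1 in hippocampus, 1 in cerebellum and 1 in liver, and for the genotype effect 2 for cerebellum against cortex and 1 for cerebellum against hippocampus. A fit of all 18 brain samples called 3 in cortex. Limma on only the compared groups called 3 for siMbnl1_pcDNA and 3 for siMbnl1_cMBNL1 against siNT_pcDNA, and 1 for each addition of MBNL1. The deposited false discovery rate called 3 member entries (2 exons), against 0. Leaving out 1 library gave 0 to 3 calls in cortex, 0 to 2 in cerebellum, 0 to 1 in muscle, 0 to 2 in testis and 0 to 1 for the genotype effect of cerebellum against cortex. Of the other values under alternatives, 247 summary values (counts of calls and the median likeness) stayed within 1.5 times or their spread. Those for member exons without 1 replicate could hardly differ from 0, as 0 to 2 of all exons were called there. For 304 single-gene differences that were called or did not overlap, 3573 values kept direction and side of the threshold, 248 fell below it, 13 passed it and 0 reversed. Of all 60 member differences between KO and WT, called or not, 15 changed sign without 1 library and 1 under another setting (Per2 in liver). TPM was not among these settings. In muscle Nr1d2 (0.135) and Tef (0.12) had differences above 0 in TPM, against -0.09 and -0.11 in CPM. The cause of these changes was not tested.

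With the replicate block, 0 members were called in cortex, 0 in muscle and 0 in testis, and the other counts of calls were as without it. Within a tissue, 1 of 18 same-numbered pairs of KO and WT libraries had deviations correlated over 0.1, with a range of -0.589 to 0.525. Deviations from a mean of 3 libraries are a weak check, so pairing is not excluded. Depth limited Arntl in liver most, at 6 to 33 reads per library.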
